A study of Bos taurus with 14 samples.

Results

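From the 27607 genes in the count table, 4 genes of the growth hormone and insulin-like growth factor (IGF) axis were chosen: IGF1 (ENSBTAG00000011082), IGFBP6 (ENSBTAG00000021467), IGFBP7 (ENSBTAG00000019368) and STAT5A (ENSBTAG00000009496). These are not all the genes of the axis. They were found by their Ensembl identifiers, and all 4 were among the 13307 genes with enough counts to be tested. RNA was sequenced from the livers of 14 female calves at 30 h, all separated from their dams before suckling and fed the same colostrum and milk replacers. The dams were crossbred Angus-based heifers bred to a single bull with female-selected semen. The 7 CON dams received a basal ration, and the 7 VTM dams received that ration plus 113 g of a vitamin and mineral premix per day from 60 d before breeding until calving. The study analysed 6 calves per group and set aside CON calf 19 and VTM calf 10 for low alignment, but the table holds counts for them too, and they are given here separately.

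Growth hormone acts on the liver through a receptor coupled to the kinase JAK2, which phosphorylates the transcription factors STAT5A and STAT5B. These enter the nucleus and drive transcription of IGF1, the hormone through which much of the effect of growth hormone on postnatal growth is carried. In blood and tissue, IGFs are held by binding proteins that set how much of the hormone reaches its receptor. IGFBP6 binds IGF2 in preference to IGF1, and IGFBP7 is a secreted protein of vessel walls and matrix that binds IGFs only weakly.

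In the 12 calves analysed by the study, IGF1 was higher in the VTM group, and IGFBP6, IGFBP7 and STAT5A were lower. The call was that of the study, a log2 fold change of 0.5 or more in size whose unadjusted p was 0.05 or below, here from the quasi-likelihood test of edgeR. By this rule 1 of the 4 genes was higher in VTM, where 0.864% of all tested genes were, and 3 were lower, where 2.85% of all tested genes were. DESeq2 also put all 4 past the threshold, with 4.73% of all tested genes past it in either direction. The genes were chosen with these results known, so the counts do not stand as evidence on the axis. No gene in the table had an adjusted p of 0.05 or less, and the adjusted p of each of the 4 genes was 0.791 (edgeR, Benjamini-Hochberg). At an unadjusted p of at most 0.05 there were 690 genes with edgeR and 880 with DESeq2, where the lowest adjusted p was 0.0844. Nothing in the labels says that calves of a group share more than their diet, and the p-values set the difference between groups against the spread between calves.

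The libraries of 2 CON calves stood apart from the rest. Genes of the mitochondrial genome took 18.3% of the counts in CON calf 31 and 8.70% in CON calf 25, against 1.93 to 3.90% in the other 10 libraries of the 12. VTM calf 40 had 15395 genes at 0 counts, the most of all 14 libraries. CON calf 31 came next with 13397, then CON calf 19 with 13079 and CON calf 25 with 12497, and the others had 10941 to 11439. Total counts of the 12 libraries ranged from 14989388 to 20125409. When CON calves 25 and 31 were both left out, none of the 4 genes was past the threshold, and 1.93% of all tested genes were. The log2 fold changes were then 0.49 for IGF1 (unadjusted p = 0.0428, edgeR), -0.56 for IGFBP6 (unadjusted p = 0.0929, edgeR), -0.39 for IGFBP7 (unadjusted p = 0.0441, edgeR) and -0.23 for STAT5A (unadjusted p = 0.249, edgeR). This pair was picked after the values were seen, for its mitochondrial share, and it also held the lowest IGF1 and the highest STAT5A levels, so that leaving it out brings the groups closer by construction.

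IGF1, the endocrine product of the axis, was measured at 6.86, 7.41, 7.09, 5.21, 2.09 and 8.65 CPM (counts scaled to library size after TMM normalization) in CON calves 1, 7, 13, 25, 31 and 37. In VTM calves 4, 16, 22, 28, 34 and 40 it was at 10.7, 10.005, 7.02, 15.8, 9.06 and 10.5 CPM. Thus 5 of the 6 VTM calves lay above every CON calf, VTM calf 22 lay among the CON calves, and CON calf 31 was far below the rest of its group.

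VTM calves averaged 10.5 ± 2.90 CPM of IGF1, against 6.22 ± 2.31 CPM for CON calves (SD, n = 6 each), or a log2 fold change of 0.75 with a standard error of 0.30 (unadjusted p = 0.0239, edgeR). An exact two-sided permutation test over all 924 splits of the calves gave p = 0.0108. The gene had between 26 counts in CON calf 31 and 331 in VTM calf 28. Counting error alone gave a coefficient of variation of 11.8% in CON and 7.38% in VTM, below the 37.1% and 27.7% found between calves. In bulk tissue, fewer cells that make a transcript and less of it per cell cannot be told apart.

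The calves set aside by the study fell on the sides of their groups for IGF1, with 8.03 CPM in CON calf 19 and 16.6 CPM in VTM calf 10. With both included, the log2 fold change was 0.81 and stayed past the threshold, with 2.07% of all tested genes past it. With 1 calf left out, IGF1 was past the threshold in 11 of 12 fits, at log2 fold changes from 0.57 without CON calf 31 to 0.87 without CON calf 37. It was not past it without VTM calf 28, at 0.60.

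**Figure D1:**
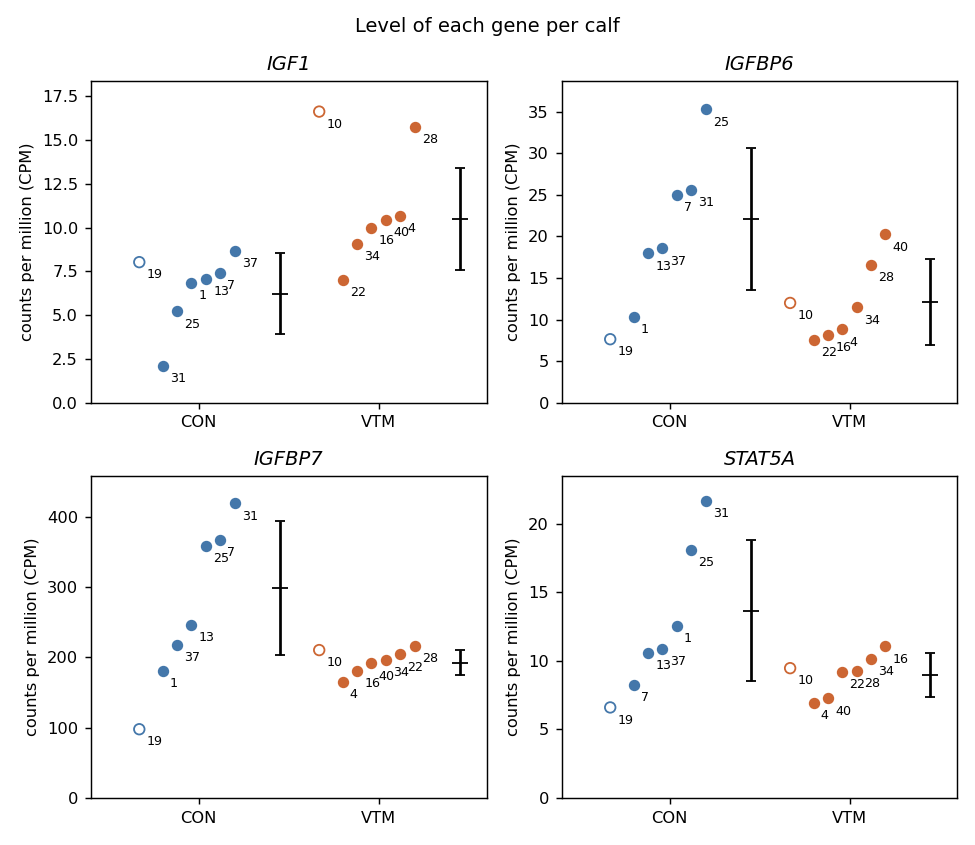
Level of IGF1, IGFBP6, IGFBP7 and STAT5A in CPM (vertical axis, from 0) for each calf by maternal diet, with calf numbers beside the points. Filled points are the 12 calves of the study, open points are CON calf 19 and VTM calf 10 on the scale of the 14-calf normalization, and bars show the mean and SD of the 6 filled points. CON calves 25 and 31 are lowest for IGF1 and highest for STAT5A, and VTM calves lie close together for IGFBP7, between 165 and 216 CPM.

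STAT5A, one of the pair of factors that carry the growth hormone signal to the nucleus, was at 12.5, 8.27, 10.6, 18.1, 21.7 and 10.9 CPM in CON calves 1, 7, 13, 25, 31 and 37. In VTM calves 4, 16, 22, 28, 34 and 40 it was at 6.95, 11.1, 9.17, 9.29, 10.1 and 7.27 CPM. The groups overlapped, and CON calves 25 and 31 were well above all others.

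VTM calves averaged 8.98 ± 1.604 CPM of STAT5A, against 13.7 ± 5.12 CPM for CON calves (SD, n = 6 each), or a log2 fold change of -0.60 with a standard error of 0.24 (unadjusted p = 0.0238, edgeR; exact permutation p = 0.0433). With 1 calf left out, STAT5A passed in 9 of 12 fits, and did not without CON calf 25 (-0.51), CON calf 31 (-0.42) or VTM calf 4 (-0.54). The exact permutation p was above 0.05 in 7 of the 12, without CON calves 1, 25 and 31 and VTM calves 4, 22, 28 and 40 in turn (0.0671 to 0.0974). CON calf 19 had 6.60 CPM, the lowest level of STAT5A in any of the libraries, and VTM calf 10 had 9.47 CPM. With both included, STAT5A was at a log2 fold change of -0.48, short of the threshold (exact permutation p = 0.136). In the RefSeq gene order STAT5A lies beside its near-identical paralog STAT5B with only a tRNA gene between them, and how many reads fit both paralogs was not measured here.

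Among the binding proteins, IGFBP6 was at 10.3, 24.977, 18.0, 35.3, 25.6 and 18.6 CPM in CON calves 1, 7, 13, 25, 31 and 37. In VTM calves 4, 16, 22, 28, 34 and 40 it was at 8.84, 8.18, 7.53, 16.6, 11.5 and 20.2 CPM. CON calves 1, 13 and 37 lay within the VTM range, and 3 VTM calves were below every CON calf.

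VTM calves averaged 12.1 ± 5.17 CPM of IGFBP6, against 22.1 ± 8.53 CPM for CON calves (SD, n = 6 each), the largest fold change of the 4 genes in this fit, at a log2 value of -0.86 with a standard error of 0.31 (unadjusted p = 0.0138, edgeR; exact permutation p = 0.0325). IGFBP6 passed in all 12 fits with 1 calf left out, from -1.07 without VTM calf 40 to -0.68 without CON calf 25. The exact permutation p was above 0.05 in 6 of the 12, without CON calves 7, 25 and 31 and VTM calves 4, 16 and 22 in turn (0.0628 to 0.0736). CON calf 19 had 7.64 CPM, below every CON calf of the study, and VTM calf 10 had 12.004 CPM. Over all 14 calves IGFBP6 stayed past the threshold at a log2 fold change of -0.72, while the exact permutation p was 0.0938.

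IGFBP7 was at 181, 367, 247, 359, 419 and 218 CPM in CON calves 1, 7, 13, 25, 31 and 37. In VTM calves 4, 16, 22, 28, 34 and 40 it was at 165, 181, 204, 216, 196 and 191 CPM. All CON calves except calf 1 lay above every VTM calf, and the VTM calves differed little from each other. The coefficient of variation was 9.33% in VTM and 32.1% in CON, with counting error at 1.68% and 1.502%.

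VTM calves averaged 192 ± 17.9 CPM of IGFBP7, against 298 ± 95.7 CPM for CON calves (SD, n = 6 each), or a log2 fold change of -0.63 with a standard error of 0.20 (unadjusted p = 0.00615, edgeR; exact permutation p = 0.0195). This was the lowest unadjusted p of the 4 genes, at rank 58 of the 13307 tested. IGFBP7 was past the threshold in all 12 fits with 1 calf left out, from -0.74 without CON calf 1 to -0.51 without CON calf 31. CON calf 19, at 97.8 CPM, was the lowest of all 14 libraries, and VTM calf 10 was at 210 CPM. With both calves included the log2 fold change was -0.47, not past the threshold (exact permutation p = 0.255).

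**Figure D2:**
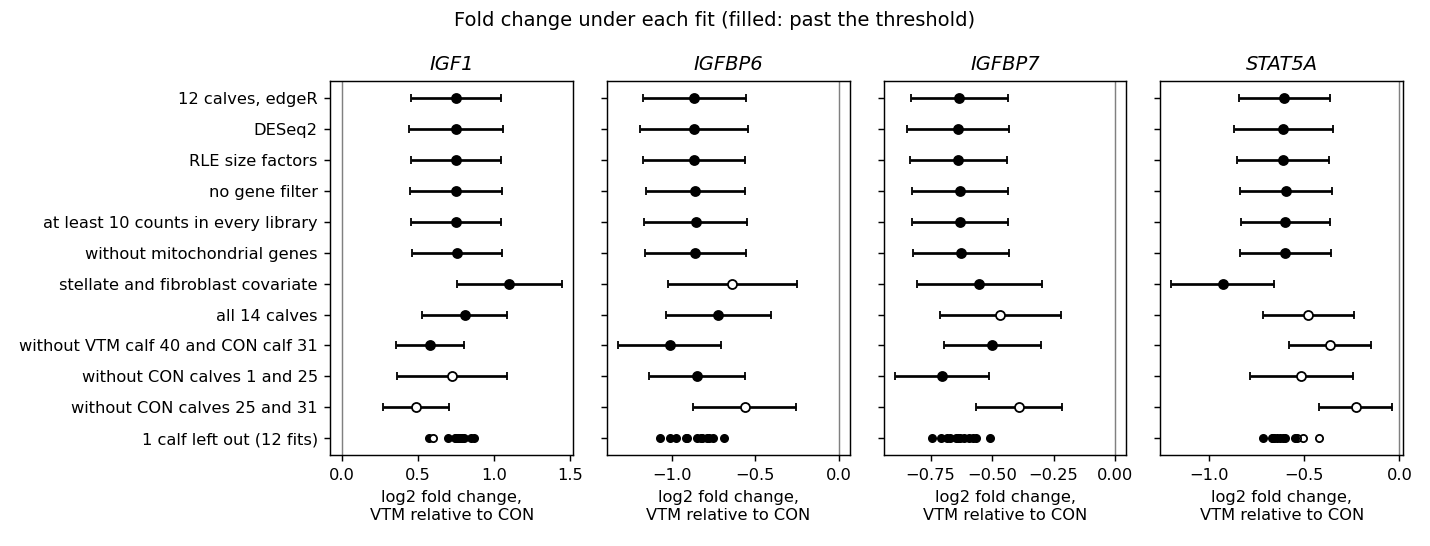
Log2 fold change of each gene, VTM relative to CON (horizontal axis), under the 12-calf edgeR fit and each alternative, with bars of 1 standard error. Filled points are past the threshold of the study and open points are not, and the lowest line gives the 12 fits with 1 calf left out. The sign of each gene was the same in all fits shown, and the only fit with 4 open points is the one without CON calves 25 and 31.

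Since 2 genes counted in the same library share its depth, their ratio does not depend on scaling between libraries. The ratio of counts is not a ratio of transcripts, because gene length was not taken into account, and it is compared between calves only. No test was run on the ratios. The genes were chosen with their directions known, so the ratios restate the fold changes and are not separate support for them. IGF1 counts per IGFBP6 count were 0.667, 0.297, 0.394, 0.148, 0.0815 and 0.466 in CON calves 1, 7, 13, 25, 31 and 37. In VTM calves 4, 16, 22, 28, 34 and 40 they were 1.21, 1.22, 0.932, 0.951, 0.790 and 0.516. All VTM calves except calf 40 had more IGF1 per IGFBP6 than any CON calf of the 12.

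On the log2 scale the mean IGF1/IGFBP6 ratio was -0.15 ± 0.46 for VTM calves and -1.86 ± 1.13 for CON calves (SD, n = 6 each), a difference of 1.71. The difference was 1.41 for IGF1/IGFBP7, at -4.23 ± 0.38 and -5.65 ± 1.13, and 1.39 for IGF1/STAT5A, at 0.20 ± 0.49 and -1.19 ± 1.22. For IGF1/IGFBP7, 5 VTM calves were above every CON calf, and for IGF1/STAT5A, 4 were. CON calf 31 had the lowest value of all calves in the 3 ratios, at -3.62, -7.65 and -3.38, followed each time by CON calf 25.

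Without CON calves 25 and 31 the differences in log2 ratio were 1.04 for IGF1/IGFBP6, 0.80 for IGF1/IGFBP7 and 0.69 for IGF1/STAT5A. Over all 14 calves they were 1.52, 1.205 and 1.27. CON calf 19 had more IGF1 per IGFBP7 than any other calf, with a log2 ratio of -3.61, so that over all 14 calves no VTM calf was above every CON calf in this ratio. In IGF1/IGFBP6 CON calf 19 was at 0.07, and over all 14 calves 3 VTM calves were above every CON calf.

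The ratios among the 3 genes that were lower in VTM differed less between the groups, which follows from their shared direction. The log2 ratio changed by -0.29 for IGFBP6/IGFBP7 and by -0.32 for IGFBP6/STAT5A. IGFBP7/STAT5A was 4.44 ± 0.25 for VTM calves and 4.46 ± 0.54 for CON calves (SD, n = 6 each), and its difference of -0.03 became 0.06 over all 14 calves. CON calf 7, with a log2 ratio of 5.47, had the most IGFBP7 per STAT5A.

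**Figure D3:**
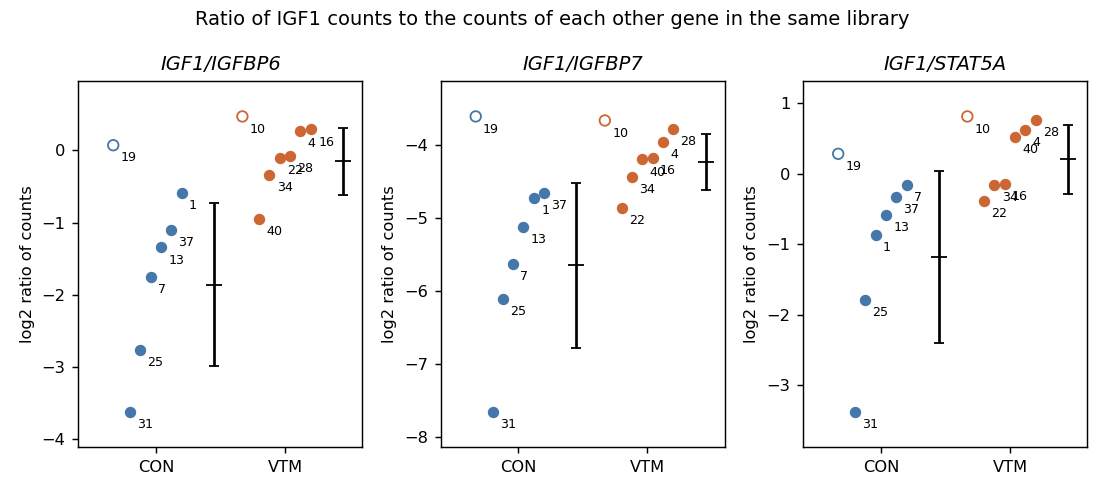
Log2 ratio of IGF1 counts to the counts of IGFBP6, IGFBP7 and STAT5A (vertical axes) for each calf by maternal diet, with calf numbers beside the points. Filled points are the 12 calves of the study, open points are CON calf 19 and VTM calf 10, and bars show the mean and SD of the 6 filled points. CON calves 25 and 31 are the lowest in each panel, and CON calf 19 lies with the VTM calves.

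Of the pairs of genes, IGFBP6 with IGFBP7 and IGF1 with STAT5A had the largest correlations in CON and over the 12 calves with group means removed, positive for the first and negative for the second. In VTM the largest was that of IGF1 with IGFBP6, at an r of 0.61 (n = 6, exact permutation p = 0.21). None held after correction for the number of tests. Correlations were taken on log2 CPM for the 6 pairs of genes within CON, within VTM, and over the 12 calves after group means were removed. With Pearson and Spearman coefficients this made 36 tests, of which the lowest adjusted p was 0.222, so that no pair passed the correction (permutation tests, Benjamini-Hochberg).

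In CON, IGF1 and STAT5A had a Pearson r of -0.84 (n = 6, exact permutation p = 0.0125, adjusted p = 0.222) and a Spearman rho of -0.83 (exact permutation p = 0.0583, adjusted p = 0.30). The value of r was -0.79 without CON calf 31 and -0.16 without CON calves 25 and 31. These 2 calves were the lowest in IGF1 and the highest in STAT5A, so leaving them out narrows the range and leaves 4 calves, over which the relation no longer holds. With group means removed, r was -0.69 (n = 12, permutation p = 0.0247, adjusted p = 0.222) and rho -0.60 (permutation p = 0.048, adjusted p = 0.288). This r was -0.49 without CON calf 31 and VTM calf 22, and -0.40 without CON calf 31 alone (n = 11). In VTM r was -0.12 and rho was -0.31 (n = 6, exact permutation p = 0.833 and 0.564, adjusted p = 0.909 and 0.812).

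IGFBP6 and IGFBP7 had a Pearson r of 0.87 in CON (n = 6, exact permutation p = 0.0208, adjusted p = 0.222) and a Spearman rho of 0.77 (exact permutation p = 0.103, adjusted p = 0.422). Without CON calves 1 and 25, the farthest from the median of IGFBP6, r was 0.97. With group means removed, r was 0.68 (n = 12, permutation p = 0.0102, adjusted p = 0.222) and rho 0.60 (permutation p = 0.0328, adjusted p = 0.236), and r was 0.65 without CON calf 1 and VTM calf 40. In VTM r was 0.40 and rho 0.14 (n = 6, exact permutation p = 0.433 and 0.803, adjusted p = 0.725 and 0.908). Whether either correlation differed between the groups was not tested.

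IGF1 and IGFBP7 had an r of -0.54 with group means removed (n = 12, permutation p = 0.146, adjusted p = 0.524; rho -0.36, permutation p = 0.291, adjusted p = 0.725), and -0.19 without CON calf 31 and VTM calf 22. The coefficients of the other 3 pairs with group means removed were -0.05 for IGF1 with IGFBP6, 0.13 for IGFBP6 with STAT5A and 0.41 for IGFBP7 with STAT5A (n = 12, permutation p = 0.873, 0.719 and 0.34, adjusted p = 0.923, 0.863 and 0.725), with rho of 0.03, 0.17 and 0.40 (permutation p = 0.923, 0.615 and 0.29). Within the groups, r of the pairs other than IGF1 with STAT5A and IGFBP6 with IGFBP7 ranged from -0.66 to 0.61 (n = 6, exact permutation p from 0.106 to 0.807).

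**Figure D4:**
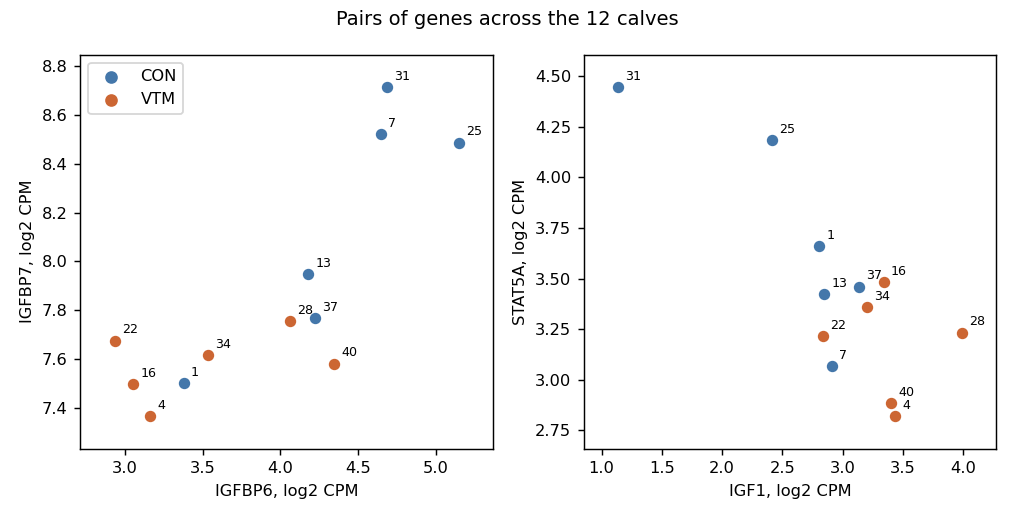
Levels of IGFBP7 against IGFBP6 and of STAT5A against IGF1, in log2 CPM with a prior count of 2, for the 12 calves, with calf numbers beside the points and color for maternal diet. CON calves 25 and 31 lie at the low IGF1 and high STAT5A end, and the CON calves spread widely along the relation of IGFBP6 and IGFBP7.

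Liver holds several cell types, and markers of some of them differed between the groups as well. Gene names were paired with identifiers only for genes listed by the study from these same calves, so the marker lists are partial and favor genes that differ. Of 12 endothelial markers 3 had names, STAB1, ROBO4 and ENG, and all 3 were lower in VTM. For the markers, as for the 4 genes, calls are those of edgeR over the 12 calves unless DESeq2 is named. Their summed level ranged from 299 to 667 CPM in CON and from 246 to 297 CPM in VTM. These ranges of the 12 calves did not overlap, but over all 14 calves they did, with CON calf 19 at 267 CPM and VTM calf 10 at 313 CPM. Taken singly, 16 of the 13307 tested genes had every VTM calf below every CON calf, and of the 3 markers only ROBO4 did. That count is of single genes, and it gives no share for a sum of 3 genes named because the study listed them. Of 12 stellate cell and fibroblast markers 7 had names, of which COL1A1, COL1A2, COL3A1, DCN, DPT and VIM were lower and LRAT, the retinol-storing enzyme of quiescent stellate cells, was higher, with sums of 1657 to 5461 CPM in CON and 1503 to 2914 CPM in VTM. The bile duct keratins KRT7 and KRT19 were lower and SOX9, listed at 0 in a VTM library, was not past the threshold (sums of 43.8 to 98.6 and 26.9 to 67.5 CPM). The only named macrophage marker, TIMD4, ranged from 6.08 to 29.5 CPM in CON and from 5.81 to 11.1 CPM in VTM, a log2 fold change of -0.81 that was not past the threshold with edgeR (unadjusted p = 0.0524) and was past it with DESeq2. Of the hepatocyte markers, the secreted proteins AHSG and TTR had names, and both were present in all 12 libraries, in sums of 5873 to 12282 CPM in CON and 6954 to 16194 CPM in VTM. The log2 fold change of AHSG was 0.67, past the threshold with both tools. That of TTR was -0.99, in the opposite direction, not past it with edgeR (unadjusted p = 0.0801) and past it with DESeq2. The study picked its differentially expressed genes with DESeq2 on these 12 calves, so a DESeq2 call of a named marker is not separate support. Of the mesothelial, lymphocyte and erythroid lists no gene had a name.

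Over the 12 calves with group means removed, the summed endothelial level had a Pearson r of 0.88 with IGFBP7, 0.54 with IGFBP6, 0.67 with STAT5A and -0.71 with IGF1. In the same order, Spearman rho was 0.84, 0.54, 0.60 and -0.45. The r of the endothelial level with IGFBP7 was 0.93 among the CON calves and 0.15 among the VTM calves, and with IGF1 it was -0.86 among the CON calves and 0.34 among the VTM calves. The macrophage marker TIMD4 had an r of -0.73 with IGF1 (-0.71 in CON and -0.81 in VTM), 0.74 with STAT5A (0.86 and 0.18), 0.50 with IGFBP7 and 0.27 with IGFBP6. Its rho was -0.87 with IGF1 and 0.69 with STAT5A. CON calves 25 and 31, lowest in IGF1 and highest in STAT5A, had the highest endothelial sums (510 and 667 CPM) and TIMD4 levels (29.5 and 23.4 CPM). The marker correlations were not computed without these calves. The summed bile duct level had an r of 0.56 with IGF1, 0.56 with IGFBP6, 0.21 with IGFBP7 and -0.31 with STAT5A, and that of the hepatocyte markers was between -0.26 and 0.21 with the 4 genes. AHSG made up most of the hepatocyte sum, on average 6707 of 7651 CPM in CON and 10694 of 11170 CPM in VTM. Within CON and VTM, the r of this sum was 0.19 and -0.37 with IGF1 and -0.02 and 0.22 with IGFBP6. It was 0.08 and 0.81 with IGFBP7, and -0.51 and 0.17 with STAT5A. The summed stellate cell and fibroblast level had an r of 0.36 with IGFBP6, 0.21 with IGFBP7, 0.51 with IGF1 and -0.56 with STAT5A. These values describe genes measured in the same libraries, which share depth and scaling. When the mitochondrial genes were taken out of the table, all 4 genes stayed past the threshold, at log2 fold changes of 0.76 for IGF1, -0.86 for IGFBP6, -0.63 for IGFBP7 and -0.60 for STAT5A (edgeR, 3.50% of all tested genes past it). The endothelial, macrophage and bile duct levels were not tried as covariates, and their part in the differences was not tested. With the stellate cell and fibroblast level as a covariate, the log2 fold changes were 1.10 for IGF1, -0.55 for IGFBP7 and -0.93 for STAT5A, past the threshold, and -0.64 for IGFBP6, not past it (edgeR, 9.81% of all tested genes past it).

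Of the 50 genes of a wider list of the axis, 6 had names, the 4 genes above and IRS2 and ONECUT1, and all 6 were past the threshold, 3 higher and 3 lower, where 3.71% of all tested genes were past it in either direction. As names came from genes that the study picked on these calves, this count says nothing about the genes without a name, among them the receptors GHR and IGF1R, the SOCS inhibitors and IGFBP1 to IGFBP5. IRS2, a docking protein of the insulin and IGF receptors, averaged 9.23 ± 6.23 CPM for VTM calves and 4.45 ± 2.14 CPM for CON calves (SD, n = 6 each), or a log2 fold change of 1.05 (unadjusted p = 0.0339, edgeR). ONECUT1, a transcription factor of hepatocytes, was at 17.2 ± 6.40 and 8.30 ± 6.18 CPM (SD, n = 6 each), or a log2 fold change of 1.04 (unadjusted p = 0.0444, edgeR). Over all 14 calves IGF1 and IGFBP6 were the only 2 of the 6 past the threshold, and IRS2 and ONECUT1 were at log2 fold changes of 0.80 and 0.32.

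Among the 628 named genes ranked, those most like each of the 4 were taken by Pearson r of log2 CPM over the 12 calves with group means removed. For IGF1 they were KLF12 (r 0.93), EDNRB, TRIM24, HYCC2 and IFT172, the fifth at 0.86. For STAT5A they were RPP21 (r 0.96), ZNF768, EIF4EBP1, the mitochondrially encoded COX1 and BOLA-DMB, the last 2 at 0.92. For IGFBP7 they were the matrix protein gene MFAP4 (r 0.96), TWF2, LGALS1, DDAH2 and TMEM88, the fifth at 0.90. For IGFBP6 they were EVA1B (r 0.81), MFAP4, S100A16, the collagen-binding proteoglycan gene DCN and IFT43, the fifth at 0.74. MFAP4 was thus on the lists of both binding proteins. Most tested genes have no name here. Among all 13307 tested genes, the 5 named genes ranked from 19 to 327 for IGF1 and from 19 to 85 for IGFBP6. They ranked from 4 to 19 for STAT5A and from 1 to 8 for IGFBP7. Within VTM, r of IGF1 with its 5 genes ran from 0.28 (HYCC2) to 0.71 (TRIM24), and within CON from 0.96 (EDNRB) to 0.997 (KLF12). Without CON calf 31 and VTM calf 40, r was 0.75 for IGF1 with KLF12, 0.95 for STAT5A with RPP21, 0.97 for IGFBP7 with MFAP4 and 0.82 for IGFBP6 with EVA1B.

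In co-expression networks built for each group from 6 calves, IGF1, IGFBP7 and STAT5A had fewer connections in VTM than in CON. These counts were computed after the other values were seen. A connection was a pair with an absolute correlation of at least 0.9 on variance-stabilized counts that was kept by the partial correlation and information theory (PCIT) filter. IGF1 had 696 connections in CON and 95 in VTM, STAT5A 590 and 181, and IGFBP7 286 and 38. IGFBP6 had 154 and 163. The median over the 494 genes past the threshold in either direction was 375 in CON and 202 in VTM.

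Without the PCIT filter, the pairs at this correlation numbered 2180 in CON and 101 in VTM for IGF1, 1569 and 220 for STAT5A, 509 and 38 for IGFBP7, and 197 and 195 for IGFBP6. The median over all genes was 437 in CON and 367 in VTM. With 1 calf left out of a group, the connections in CON fell to between 263 and 452 for IGF1, 198 and 354 for STAT5A, 138 and 261 for IGFBP7, and 103 and 144 for IGFBP6. In VTM they lay between 78 and 162 for IGF1, 117 and 197 for STAT5A, 60 and 123 for IGFBP7, and 117 and 224 for IGFBP6. Without the PCIT filter, pairs were more numerous in most of these networks of 5 calves than in those of 6. In CON they numbered 2369 to 4127 for IGF1, 1332 to 3340 for STAT5A, 611 to 2584 for IGFBP7 and 342 to 767 for IGFBP6, and in VTM 204 to 636, 396 to 1302, 82 to 369 and 299 to 1938. Counts of networks of 5 and of 6 calves are thus not on one scale. Among networks of 5 calves, every CON count of IGF1, IGFBP7 and STAT5A was above every VTM count, with and without the filter, while the CON and VTM counts of IGFBP6 overlapped. For STAT5A with the filter, the lowest CON count was 198 and the highest VTM count 197. The share of other genes that show the same was not computed. Networks of 5 calves from the same group share most of their calves, so their counts are not separate observations. No test was run on the connections, and a correlation of this size over 6 calves can rest on 1 or 2 of them.

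**Figure D5:**
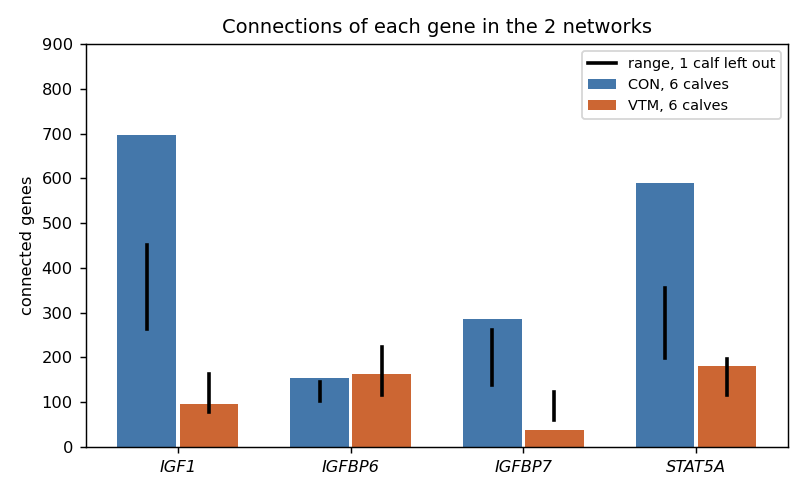
Number of connected genes (vertical axis, from 0) of IGF1, IGFBP6, IGFBP7 and STAT5A in the CON and VTM networks of 6 calves, as bars. Black lines span the counts when each calf of that group was left out in turn, which gives networks of 5 calves. All 4 CON bars reach above their black lines, the VTM bar of IGFBP7 ends below its line, and the bars of IGFBP6 are nearly equal.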

How the data were processed

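The deposited table holds raw read counts that the authors obtained with STAR 2.7.5 on the genes of Ensembl release 109 (genome ARS-UCD1.2), after filtering reads on quality, for 14 libraries from a directional kit. Which strand column of STAR was taken is not given in the sources used here, so reads of overlapping genes on the other strand cannot be set apart. Groups were taken from the treatment labels, and each calf is 1 replicate. The members, lists and tests were chosen with earlier results of these data known.

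Counts were tested over the whole table with the quasi-likelihood test of edgeR 4.0.16 in R 4.3.3, on genes kept by filterByExpr, with TMM scaling and diet as the only term, and with DESeq2 1.42.0 as an alternative. Exact permutation tests used log2(CPM + 0.5) and all 924 splits (smallest p 0.00216), or 3432 splits for 14 calves. Other log2 CPM values used a prior count of 2. Networks used variance-stabilized counts and Python 3.11.15 (numpy 2.4.6). The methods do not give the form of the PCIT tolerance. Signed ratios removed no pair of these genes at this correlation, and absolute ratios were used instead, a choice made with the connection counts listed by the study for 3 of the 4 genes in view. The code was tested on simulated data.

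Genes named are the 4 genes, those of the wider list and the markers that have a name, and the 5 most alike named genes for each of the 4. Names came from supplementary tables of the study, for 629 genes. Alternatives were RLE size factors, other gene filters, a pseudocount of 2 CPM, all 14 calves, each calf left out, pairs of calves left out, the table without mitochondrial genes and a marker covariate. The fits without CON calves 25 and 31, the networks and the correlations without 1 calf were added after the values were seen. No sequence of these genes was used here, and the planned search for a STAT5 motif in promoters was not run.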

Additional observations from a re-analysis of the deposited data

How the results depend on the processing

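The sign of the log2 fold change of each of the 4 genes was the same in every fit run. Calls were lost as follows. Without CON calves 25 and 31, chosen after the values were seen, the log2 fold changes were 0.49 for IGF1, -0.56 for IGFBP6, -0.39 for IGFBP7 and -0.23 for STAT5A. Without CON calves 1 and 25 they were 0.72 for IGF1 and -0.52 for STAT5A, without VTM calf 40 and CON calf 31 -0.36 for STAT5A, and with the stellate cell and fibroblast covariate -0.64 for IGFBP6. Over all 14 calves they were -0.47 for IGFBP7 and -0.48 for STAT5A, and the exact permutation p was 0.0938 for IGFBP6, 0.255 for IGFBP7 and 0.136 for STAT5A. With 1 calf left out, the log2 fold change ranged from 0.57 to 0.87 for IGF1 and from -0.71 to -0.42 for STAT5A, and the exact permutation p from 0.0152 to 0.0736 for IGFBP6 and from 0.00866 to 0.0974 for STAT5A. The count of the wider list past the threshold, 6, was 2 over all 14 calves, 3 without VTM calf 40 and CON calf 31, and 3 to 6 with 1 calf left out, when the share of all tested genes past it ran from 2.12% (without CON calf 31) to 7.73% (without CON calf 37). The cause of these losses was not tested.

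Some values changed sign. The difference in log2 ratio of IGFBP7/STAT5A was 0.061 over all 14 calves and ranged from -0.15 to 0.18 with 1 calf left out, above 0 without CON calf 7 (0.18), VTM calf 16 (0.05) and VTM calf 34 (0.0049). The correlation of IGF1 with STAT5A in VTM was 0.0023 over all 14 calves. That of IGFBP6 with STAT5A in VTM was -0.33 over the 6 VTM calves and 0.073 without VTM calf 40. That of IGF1 with IGFBP6 with group means removed was 0.19 without CON calf 31, with or without VTM calf 40, and -0.072 without VTM calf 40. The difference in connections of IGFBP6, VTM minus CON, was -2 with no PCIT filter and ranged from -37 to 70 with 1 calf left out, at -37, -18, -23, -17 and -18 without VTM calves 16, 22, 34, 40 and 4. Each fit with 1 calf left out sets a network of 5 calves against one of 6, so its sign is not a comparison of like networks. The connections of IGFBP6 ranged from 103 to 144 in CON networks of 5 calves and from 117 to 224 in VTM networks of 5 calves.

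No paired or blocked analysis was possible. The study stratified the dams by body weight and included dams that were rebred, but the labels used here give neither for a calf. The number of calves, and for IGF1 in CON calf 31 its 26 counts, limit the precision.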
